A study of Mus musculus with 8 samples.

Results

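The genes described are 10 complement genes of the mouse: C1qa, C1qb and C1qc, C3, Cfb and Cfp, the receptors C3ar1, C5ar1 and C5ar2, and Vsig4. They were found in the deposited count table by matching its Ensembl IDs to gene symbols, as 10 of its 55414 genes, and all 10 passed the filter on low counts. The RNA came from red pulp macrophages, the iron-recycling macrophages of the spleen, sorted from wild-type C57BL/6J mice in a study of hemolysis in sepsis. The mice had either cecal ligation and puncture (CLP), in which gut bacteria leak into the abdomen, or sham surgery (Sham). Spleens were taken 2 h after either operation, and each group holds 4 libraries, called CLP replicate 1 to 4 and Sham replicate 1 to 4. Both groups share genotype, time and sort. The labels give neither age nor sex, and whether each library is a separate mouse is not stated, so p-values measure only the spread between these libraries, which may be technical.

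Complement is a set of blood proteins that tag microbes and dying cells and call in leukocytes. C1q recognises bound antibody and cell debris and starts the classical route. C3 is the protein on which all routes converge, and factor B and properdin drive an amplification loop around it. Cleavage of C3 and C5 releases small peptides, the anaphylatoxins, which act through receptors on leukocytes. Macrophages are a main source of C1q in the body, whereas the liver makes most circulating C3.

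At 2 h after CLP, 7 of the 10 genes rose (C1qa, C1qb, C1qc, Cfb, Cfp, C3ar1 and C5ar1), C5ar2 fell, and C3 and Vsig4 did not pass the test (adjusted p under 0.05 in edgeR's quasi-likelihood test over all genes). The background was high: of 14004 genes tested, 43.3% were called, with 19.8% of all tested genes higher in CLP and 23.5% lower. The median log2 fold change of the 10 genes, CLP minus Sham, was 0.40, beside -0.053 over all genes tested. The groups did not overlap for 6 of the 10 genes, beside 41.5% of all genes. Values are CPM, reads of a gene relative to all reads of its library, on TMM-scaled library totals. TMM scaling assumes that most genes do not change. Plain library totals moved the median of all genes' fold changes by -0.32 on the log2 scale, and the count became 3 higher (C3ar1, C5ar1 and Cfb, beside a background of 9.18%) and 1 lower (C5ar2, beside 46.0%). In bulk RNA, fewer cells of a type and less RNA per cell cannot be told apart.

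**Figure D1:**
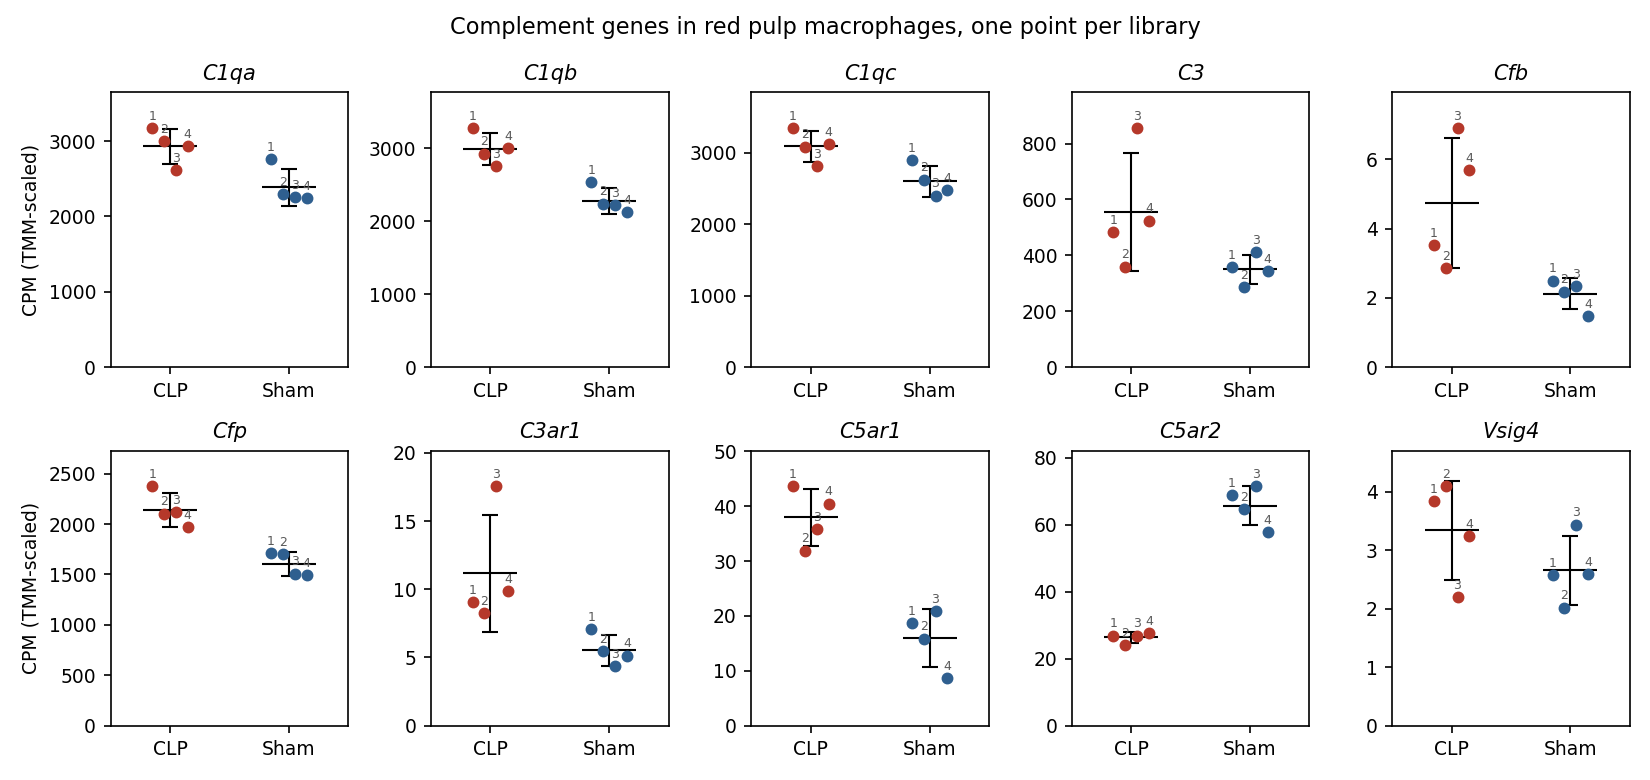
TMM-scaled CPM of the 10 complement genes. Each numbered point is a library, the horizontal bar is the mean and the whiskers are the SD (n = 4 each). C5ar2 is the gene whose CLP points, 24.1 to 27.5 CPM, all lie below its Sham points, 57.9 to 71.4 CPM.

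The libraries held 17333748 to 21409078 counts in the CLP group and 15392992 to 25665633 in the Sham group. The sorted cells carried red pulp macrophage markers: the summed CPM of 10 such genes was 41030 to 46860 in CLP and 35360 to 43370 in Sham. Vcam1 had the most reads of that list, in which 4 genes were called higher (Vcam1, Adgre1, Csf1r and Spic) and 2 lower (Mertk and Slc40a1). Of 10 neutrophil markers, Ly6g, Camp, Ngp and Cxcr2 stayed under 1 CPM in every library. The summed neutrophil list was 102.5 to 175.3 CPM in CLP and 77.0 to 92.6 CPM in Sham. Most of it was Csf3r, and 3 of its 4 tested genes were called higher. Of 5 monocyte markers, led by Vcan, none was called, and they summed to 8.13 to 10.5 CPM in CLP and 7.17 to 9.70 CPM in Sham. The platelet list, led by Ppbp, summed to 18.1 to 22.6 CPM in CLP and 6.80 to 7.95 CPM in Sham, with 3 of 4 tested genes higher. The erythroid list, led by Slc4a1, summed to 564.6 to 998.8 CPM in CLP and 239.7 to 1320 CPM in Sham. Of its 5 tested genes, 1 was called higher. The summed lists for dendritic cells (Zbtb46 in front), B cells (Ighm), T and NK cells (Cd3e) and stroma and endothelium (Pecam1) overlapped between groups. Within them, 1 dendritic cell gene was called higher and 1 lower. In the B cell list 1 gene was called lower, as was 1 in the T and NK cell list, and 2 stroma and endothelium genes were called higher. No marker in any list was at 0 in all 8 libraries, and the part of other cells in the results below was not tested.

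C1q is assembled from the products of C1qa, C1qb and C1qc, which sit side by side on chromosome 4 with no other annotated gene among them in GENCODE release M21. Together they took 0.741% to 0.870% of all counts of a CLP library and 0.767% to 0.882% of a Sham library. The 250 bases before the RefSeq start of C1qb (GRCm38.p6, chr4:136886201-136886450, minus strand) and of C1qc (chr4:136892915-136893164, minus strand) are shown because the subunits kept nearly one ratio. Capitals mark matches to short motifs, described after the C5a receptor sequences.
C1qb: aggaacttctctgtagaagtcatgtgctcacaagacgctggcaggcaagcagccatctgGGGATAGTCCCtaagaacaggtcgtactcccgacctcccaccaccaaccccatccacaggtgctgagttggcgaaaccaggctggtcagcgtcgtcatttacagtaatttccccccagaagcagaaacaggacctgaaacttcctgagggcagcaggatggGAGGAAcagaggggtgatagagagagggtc
C1qc: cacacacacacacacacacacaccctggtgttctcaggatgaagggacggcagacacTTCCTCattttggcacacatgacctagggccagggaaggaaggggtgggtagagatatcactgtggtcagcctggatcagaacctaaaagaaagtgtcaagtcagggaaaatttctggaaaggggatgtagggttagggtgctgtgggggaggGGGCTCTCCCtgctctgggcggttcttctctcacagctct

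C1qa was at 3176, 3000, 2619 and 2929 CPM in CLP replicates 1 to 4, against 2759, 2296, 2259 and 2242 CPM in Sham replicates 1 to 4. Sham replicate 1 stood above CLP replicate 3, so the groups overlapped by a single library on each side. The log2 fold change was 0.29 (SE 0.094, adjusted p = 0.0249 in edgeR). C1qb was at 3282, 2930, 2755 and 3003 CPM in CLP, against 2541, 2241, 2219 and 2125 CPM in Sham. All CLP libraries lay above all Sham libraries, and C1qb rose 1.31-fold (log2 0.39, SE 0.086; adjusted p = 0.00343 in edgeR). C1qc averaged 3088 ± 221 CPM in CLP and 2597 ± 218 CPM in Sham (SD, n = 4 each), and Sham replicate 1 again lay above CLP replicate 3. Its log2 fold change was 0.25 (SE 0.087, adjusted p = 0.0369 in edgeR).

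The rise of C1q rests on the scaling. With library totals C1qa was at -0.021, C1qb at 0.074 and C1qc at -0.067 on the log2 scale, with adjusted p of 0.836, 0.384 and 0.448 in edgeR. Leaving out CLP replicate 1, 2 or 4, or Sham replicate 2 or 3, also ended the calls of C1qa and C1qc, and leaving out Sham replicate 4 ended that of C1qc, with adjusted p up to 0.0751 for C1qa and 0.106 for C1qc. C1qb kept its call without any single library (adjusted p up to 0.0155).

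Ratios within a library do not depend on scaling. Per kilobase of transcript, C1qa made up 34.1% to 35.4% of the C1q sum in CLP and 34.2% to 35.9% in Sham. C1qb made up 33.1% to 34.3% in CLP and 31.6% to 32.9% in Sham. C1qc made up 31.4% to 31.7% in CLP libraries, against 32.1% to 33.8% in Sham libraries. The subunits were thus close to equal in every library, with C1qb taking a slightly larger share in CLP. The log2 ratio of C1qb reads to C1qc reads was -0.045 ± 0.023 in CLP and -0.19 ± 0.053 in Sham (SD, n = 4 each). The groups did not overlap, and the difference of 0.14 had a two-sided exact permutation p of 0.0286, the smallest that 70 assignments allow, and 0.100 after adjustment over the 7 ratios examined. The ratio of C1qa to C1qc differed by 0.046 (exact permutation p = 0.257, adjusted 0.450).

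By root mean square difference of centred log2 CPM over the 8 libraries, the genes with a pattern most like the mean of the C1q subunits were Ybx1 (0.030), Grn (0.030) and Eef2 (0.030) among 9035 genes of at least 5 CPM. They encode an RNA-binding protein, progranulin and a translation elongation factor. Their log2 fold changes were 0.27, 0.30 and 0.34. The distance, here and for the C5a receptors below, was taken on TMM-scaled values over both groups. It therefore includes the shift between groups, and with it the scaling.

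C3, Cfb and Cfp encode parts of the amplification loop. C3 was at 482.7, 360.1, 856.1 and 524.0 CPM in CLP replicates 1 to 4, against 356.6, 287.3, 410.7 and 343.3 CPM in Sham replicates 1 to 4. CLP replicate 3 was far above the rest, and CLP replicate 2 lay within the Sham range. C3 did not pass, at 0.67 on the log2 scale (SE 0.25; adjusted p = 0.0571 in edgeR). It passed with DESeq2 (0.71, adjusted p = 0.00393) and without CLP replicate 2 (0.83, adjusted p = 0.0139 in edgeR), and was 0.39 without CLP replicate 3 (adjusted p = 0.0632 in edgeR).

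Cfb, which encodes factor B, the source of the enzyme that cleaves C3 in this loop, was rare. It was at 3.52, 2.86, 6.91 and 5.69 CPM in CLP, against 2.50, 2.18, 2.33 and 1.48 CPM in Sham. These levels rest on 55 to 126 reads per CLP library and 36 to 69 reads per Sham library. The groups did not overlap, and Cfb rose 2.23-fold (log2 fold change 1.16, SE 0.30, adjusted p = 0.00935 in edgeR). The call was lost with 1 surrogate variable estimated from raw counts (0.73, adjusted p = 0.233). That variable itself ran partly with the groups. In GENCODE release M21 a read-through model, Gm20547, shares 79.5% of the exon bases of Cfb and was listed at 0 reads in all 8 libraries. The sources used here do not give how reads in the shared exons were counted, and the level of Cfb is uncertain to that extent.

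Cfp encodes properdin, which stabilises the same enzyme and is known as a product of leukocytes. It was at 2374, 2103, 2115 and 1971 CPM in CLP, against 1714, 1703, 1507 and 1492 CPM in Sham. All CLP libraries were higher, by 1.33-fold (log2 fold change 0.42, SE 0.086, adjusted p = 0.00236 in edgeR). With library totals the change was 0.10 and the call was lost (adjusted p = 0.288).

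Among CLP libraries, C3, Cfb and the receptor gene C3ar1 followed the same order, lowest in replicate 2, then 1, then 4, and highest in replicate 3. An order of 4 libraries can be shared by chance. The scavenger receptor Marco, a marker of marginal zone macrophages, ran in that order too, at 110.7, 203.1, 223.3 and 373.0 CPM. The red pulp macrophage marker Spic also ran in it, at 1856, 1951, 2416 and 2628 CPM. So did the dendritic cell marker Xcr1 (2.965, 3.91, 4.04 and 6.08 CPM) and the B cell marker Cd79a (2.35, 2.56, 3.51 and 3.56 CPM). No other gene of the red pulp macrophage, dendritic cell and B cell lists shared it. The neutrophil transcript S100a9 shared the order as well, at 4.86, 5.51, 12.8 and 16.4 CPM. The other neutrophil markers did not share it. S100a8 was lowest in CLP replicate 1 (3.78 CPM) and highest in replicate 4 (10.1 CPM), and Csf3r was lowest in replicate 1 (92.05 CPM). The other markers of the marginal zone list did not share it either. Siglec1, with the most reads, was lowest in CLP replicate 4 (245.0 CPM) and highest in replicate 3 (304.2 CPM). Cd209b, under 1 CPM throughout, was lowest in CLP replicate 3. In the Sham libraries Siglec1 was at 214.5 to 271.8 CPM and Marco at 61.7 to 114.2 CPM. The list summed to 368.1 to 677.4 CPM in CLP and 304.5 to 374.3 CPM in Sham, and 1 of its 3 tested genes was called higher. The part of other cells in the results for C3, Cfb and C3ar1 was not tested. The within-library log2 ratio of Cfb to C3 was -6.88 ± 0.25 in CLP and -7.36 ± 0.36 in Sham, a difference of 0.49 (two-sided exact permutation p = 0.0571, adjusted 0.133). That of Cfp to C3 was 2.01 ± 0.54 in CLP and 2.21 ± 0.29 in Sham (exact permutation p = 0.657, adjusted 0.767).

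**Figure D2:**
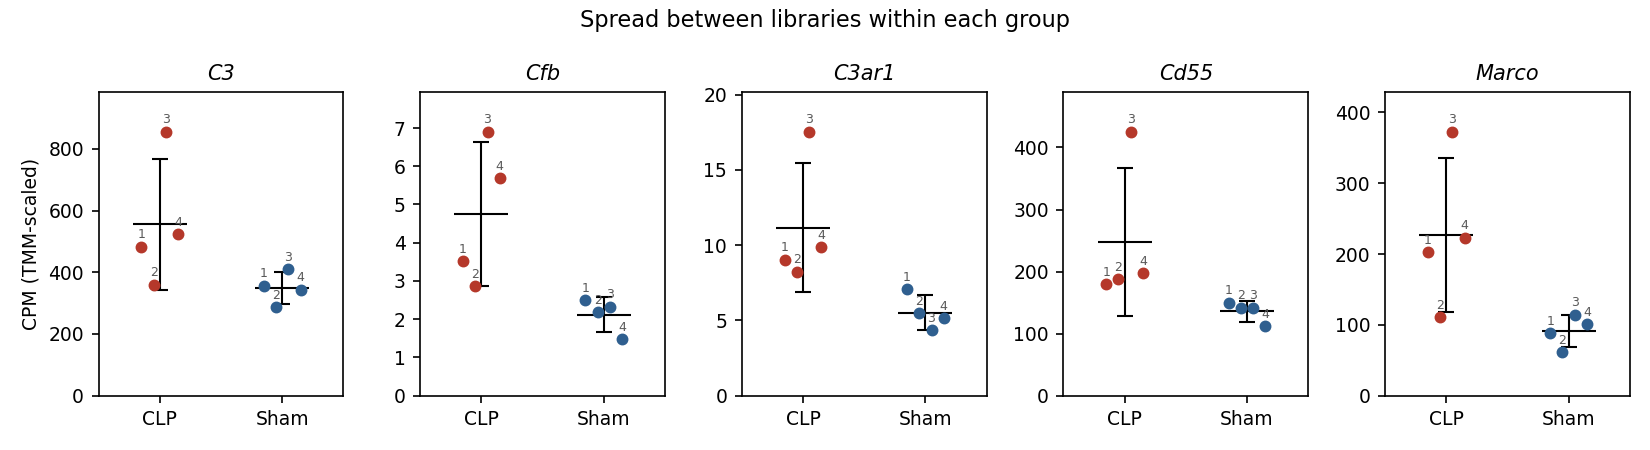
TMM-scaled CPM of C3, Cfb, C3ar1, Cd55 and the marginal zone marker Marco, with a numbered point per library, mean bars and SD whiskers (n = 4 each). CLP replicate 3 is the highest point in all 5 panels, with 425.6 CPM of Cd55 against 180.1 to 197.5 CPM in the other CLP libraries.

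All 3 anaphylatoxin receptors changed, C3ar1 and C5ar1 upward and C5ar2 downward. C3ar1, the receptor for the peptide released from C3, was at 9.03, 8.23, 17.5 and 9.86 CPM in CLP replicates 1 to 4, against 7.09, 5.48, 4.37 and 5.14 CPM in Sham replicates 1 to 4. The groups did not overlap, and CLP replicate 3 was again the highest. C3ar1 rose 2.02-fold (log2 fold change 1.01, SE 0.25, adjusted p = 0.0072 in edgeR), and without CLP replicate 3 the log2 fold change was 0.71 (adjusted p = 0.00875). With 1 surrogate variable estimated from raw counts the call was lost (1.13, adjusted p = 0.0553).

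C5ar1 and C5ar2 both encode receptors for the peptide released from C5. C5ar1 signals through G proteins and drives chemotaxis and activation, whereas C5ar2 does not couple to G proteins and is described as a decoy or modulator of C5ar1. The genes are neighbours on chromosome 7, on the same strand, with no annotated gene between them in GENCODE release M21. The 250 bases before the RefSeq start of each are shown because these neighbours moved in opposite directions. For C5ar2 it is the first of 2 RefSeq starts. They are chr7:16259339-16259588 for C5ar1 and chr7:16244155-16244404 for C5ar2, both GRCm38.p6 and minus strand.
C5ar1: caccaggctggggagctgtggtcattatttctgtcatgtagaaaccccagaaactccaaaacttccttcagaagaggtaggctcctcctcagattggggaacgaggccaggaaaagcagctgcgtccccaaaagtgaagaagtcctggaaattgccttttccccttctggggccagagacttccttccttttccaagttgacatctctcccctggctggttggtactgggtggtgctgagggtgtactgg
C5ar2: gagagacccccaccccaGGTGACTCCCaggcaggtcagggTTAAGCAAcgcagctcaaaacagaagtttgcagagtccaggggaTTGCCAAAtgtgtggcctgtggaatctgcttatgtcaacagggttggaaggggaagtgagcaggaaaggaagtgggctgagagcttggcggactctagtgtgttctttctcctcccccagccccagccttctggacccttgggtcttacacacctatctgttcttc

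The motifs searched on both strands were GGGA, then 4 bases of any kind, then CC for NF-kB, TGANTCA for AP-1, GAGGAA for PU.1, TTGCNNAA for C/EBP and TATAAA for the TATA box. Of 27025 RefSeq windows of 250 bases, 17.3% held the NF-kB letters, 6.87% those of AP-1, 23.1% those of PU.1, 9.55% those of C/EBP and 13% the TATA box. The C5ar1 window held none of them. The C5ar2 window held the NF-kB letters once and the C/EBP letters once on each strand. The C1qb window held the NF-kB letters on both strands, overlapping, and the PU.1 letters 30 to 25 bases before the start, and the C1qc window held both motifs on the opposite strand. The C3 window held the NF-kB letters 3 times and the C/EBP letters once, the Vsig4 window the PU.1 letters 2 times, and the C3ar1 window the AP-1 and TATA letters once each. These are letter matches and not measured binding. RefSeq windows were found for 8 of the 10 genes, all but C1qa and Cfb.

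C5ar1 was at 43.6, 31.9, 35.9 and 40.5 CPM in CLP, against 18.6, 15.9, 20.9 and 8.68 CPM in Sham. All CLP libraries were above all Sham libraries, and Sham replicate 4 was the lowest. C5ar1 rose 2.37-fold (log2 fold change 1.25, SE 0.24, adjusted p = 0.00243 in edgeR). Without Sham replicate 4 the log2 fold change was 1.06 (adjusted p = 0.000106), and with library totals it was 0.93 (adjusted p = 0.0053).

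C5ar2 was at 26.8, 24.1, 26.9 and 27.5 CPM in CLP, against 68.8, 64.7, 71.4 and 57.9 CPM in Sham. The CLP libraries lay close together, with a coefficient of variation of 5.84%, and all were less than the lowest Sham library. C5ar2 fell by 1.32 on the log2 scale (SE 0.088, adjusted p = 1.87e-06 in edgeR), and the value in CLP was 0.401 of that in Sham. Across the 8 fits without a single library it stayed between -1.35 and -1.25, and with library totals it was -1.64.

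**Figure D3:**
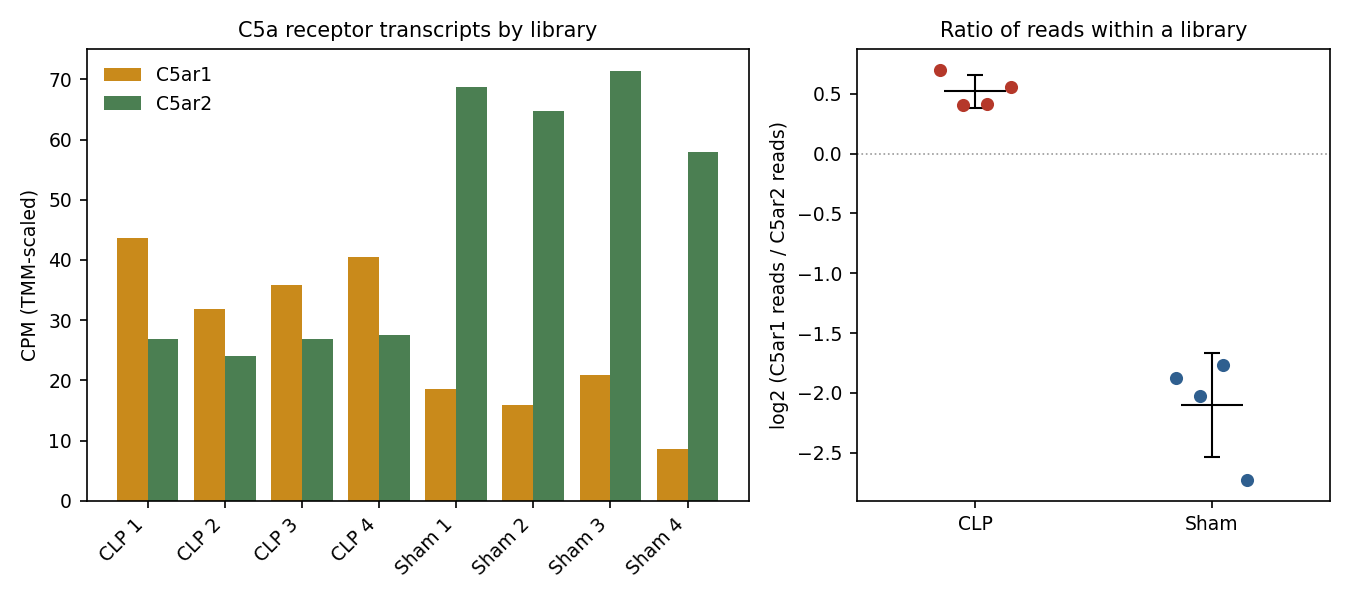
Left, TMM-scaled CPM of C5ar1 and C5ar2 in each library. Right, the log2 ratio of C5ar1 reads to C5ar2 reads within each library, with the mean and SD (n = 4 each): C5ar1 outnumbers C5ar2 in the 4 CLP libraries and C5ar2 outnumbers C5ar1 in the 4 Sham libraries.

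The balance of the C5a receptors was reversed. C5ar1 reads exceeded C5ar2 reads by a log2 ratio of 0.52 ± 0.14 in CLP, while the ratio was -2.10 ± 0.43 in Sham (SD, n = 4 each). These are reads, not corrected for transcript length. The difference of 2.62, a 6.16-fold change in the ratio, needs no scaling between libraries. Its two-sided exact permutation p was 0.0286, the smallest that 70 assignments allow, and 0.100 after adjustment over the 7 ratios. The C3ar1 to C5ar1 ratio overlapped between the groups, at -1.82 ± 0.54 in CLP and -1.48 ± 0.62 in Sham (exact permutation p = 0.400, adjusted 0.560).

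C5ar1 is known in neutrophils and monocytes as well as macrophages. Beside its rise, the neutrophil transcripts S100a8 and S100a9 were at 6.93 ± 3.01 and 9.90 ± 5.64 CPM in CLP, against 1.60 ± 0.88 and 2.06 ± 1.12 CPM in Sham. Of the other neutrophil markers, Csf3r averaged 110.9 CPM in CLP and 79.0 CPM in Sham, and Ngp 0.570 CPM in CLP and 0.258 CPM in Sham. Ltf averaged 0.644 ± 1.01 CPM in CLP, mostly from CLP replicate 2 (2.15 CPM), and 0.036 CPM in Sham. Camp averaged 0.051 CPM in CLP and 0.009 CPM in Sham. Retnlg averaged 0.845 CPM in CLP and 0.647 CPM in Sham, and Mmp8 0.562 CPM in CLP and 0.471 CPM in Sham. Cxcr2 went the other way, at 0.189 CPM in CLP and 0.455 CPM in Sham. CLP replicate 1 had the most C5ar1 (43.6 CPM) and the least S100a8 of its group (3.78 CPM). CLP replicate 4, next in C5ar1 (40.5 CPM), had the most S100a8 (10.1 CPM). Ly6g had 0 CPM in every Sham library and 0.016 ± 0.032 CPM in CLP. The part of such cells in the C5ar1 result was not tested.

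The genes with a pattern most like C5ar1 were Rap2a, Cebpb and Mtmr12, with root mean square differences of 0.168, 0.197 and 0.201 in log2 CPM over the 8 libraries. Cebpb encodes the transcription factor C/EBP-beta. Those most like C5ar2 were Cdc14b (0.095), Golph3l (0.103) and Trit1 (0.124).

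Vsig4 encodes a macrophage receptor for fragments of C3, best known on Kupffer cells of the liver, that also inhibits the alternative pathway. It was at 3.84, 4.09, 2.19 and 3.24 CPM in CLP, against 2.57, 2.02, 3.44 and 2.59 CPM in Sham, from 40 to 80 reads per library. The groups overlapped and CLP replicate 3 was the lowest of its group. Vsig4 did not pass, at 0.34 on the log2 scale (SE 0.25; adjusted p = 0.313 in edgeR). Its log2 ratio to the summed C1q subunits was the same size in both groups, at -11.4 ± 0.32 in CLP and -11.4 ± 0.36 in Sham.

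**Figure D4:**
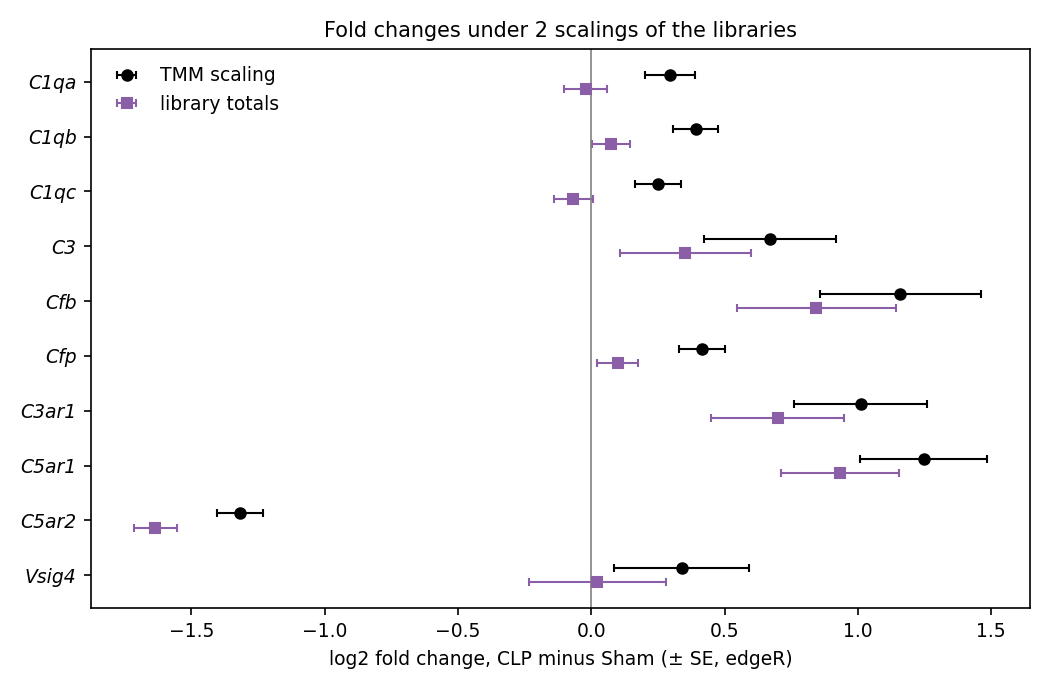
Log2 fold changes of the 10 genes, CLP minus Sham, with SE from edgeR, under TMM scaling (circles) and library totals (squares). C3ar1, C5ar1 and Cfb stay above 0 and C5ar2 below it under both, while the C1q genes and Cfp move to within 0.10 of 0 with library totals.

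Per kilobase of the longest coding transcript, the levels could be ranked. In CLP the order was C1qa (2818 ± 224 CPM per kilobase), C1qb (2750 ± 201) and C1qc (2567 ± 183), whose ranges overlapped, then Cfp (1308 ± 103), C3 (108.2 ± 41.3), C5ar1 (14.95 ± 2.03) and C5ar2 (7.68 ± 0.45). C3ar1 (2.59 ± 1.00), Vsig4 (2.33 ± 0.59) and Cfb (1.72 ± 0.68) came last and overlapped with their neighbours. In Sham, C1qa (2297 ± 238), C1qc (2159 ± 181) and C1qb (2097 ± 166) led, and C5ar2 (19.2 ± 1.7) stood above C5ar1 (6.31 ± 2.09) with no overlap.

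Of 46 other complement genes, 21 passed the filter on low counts, and the 25 that did not include Mbl1, Mbl2, Masp1, Masp2, Cfd, C7, C9 and Hc, which encodes C5. Among the 21, 9 rose (C2, C4a, Fcna, C6, Clu, Cd55, Itgb2, Cd93 and Calr) and none fell in edgeR, with a median log2 fold change of 0.39. Of all tested genes, 19.8% were called higher and 23.5% lower (43.3% in either direction). The 21 genes were not tested as a set, and the counts by list that follow stand beside the same background. In the same fit 12 did not pass, and Cd46, at -0.62, was the lowest (adjusted p = 0.0844, unadjusted p = 0.0411 in edgeR). With library totals 3 rose (C4a, Clu and Cd93) and 2 fell (Cd46 and Cr1l), beside 9.18% of all tested genes higher and 46.0% lower. Cr1l was instead called higher with DESeq2 size factors (0.18, adjusted p = 0.0489 in edgeR) and with DESeq2 (0.18, adjusted p = 0.0369).

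In the classical and lectin start, 3 of 6 tested genes rose. Fcna, a ficolin that binds sugars on microbes, averaged 2055 ± 189 CPM in CLP and 1678 ± 86 CPM in Sham, and C2, a partner of C4 in the classical convertase, 49.0 ± 4.1 CPM in CLP and 38.3 ± 5.6 CPM in Sham. With library totals Fcna was at -0.027 and C2 at 0.041, neither called. The call of Fcna was also lost without CLP replicate 1 (adjusted p = 0.0534 in edgeR) or Sham replicate 2 (0.0517). C2 shares 42.8% of its exon bases with Gm20547, so the doubt about shared exons holds for it too. C4a rose too, at 0.980 ± 0.376 CPM in CLP and 0.299 ± 0.159 CPM in Sham, and is a near-identical copy of C4b, so its reads are uncertain. In the terminal pathway C6 alone was tested. C6, a part of the membrane attack complex, averaged 744.1 ± 55.0 CPM in CLP and 612.1 ± 37.8 CPM in Sham (log2 fold change 0.28, adjusted p = 0.0135 in edgeR, and -0.034 with library totals).

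Among soluble regulators 1 of 2 tested genes rose, Clu, which encodes the terminal pathway inhibitor clusterin (3.93 ± 0.63 CPM in CLP and 1.97 ± 0.195 CPM in Sham). Among membrane regulators 1 of 4 rose, Cd55, which encodes decay-accelerating factor. Cd55 averaged 247.9 ± 118.7 CPM in CLP and 136.3 ± 16.8 CPM in Sham, and without CLP replicate 3 its log2 fold change was 0.47 (adjusted p = 0.00233 in edgeR). Its call (log2 fold change 0.86, adjusted p = 0.0406 in edgeR) was lost without Sham replicate 2, 3 or 4 (adjusted p up to 0.0694), with library totals (0.138) and with no filter on low counts (0.138).

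Of 8 receptors for C1q and C3 fragments 3 rose. Itgb2, the shared beta chain of complement receptors CR3 and CR4, averaged 1111 ± 35 CPM in CLP and 822.3 ± 46.5 CPM in Sham (log2 fold change 0.43, adjusted p = 0.000537 in edgeR). With library totals it was at 0.12 and not called (adjusted p = 0.112). Cd93 averaged 7.31 ± 0.85 CPM in CLP and 3.69 ± 1.33 CPM in Sham (log2 fold change 0.99, adjusted p = 0.00722 in edgeR). Lrp1, an endocytic receptor and the gene of the list with the most reads, was at 4343 ± 438 CPM in CLP and 3839 ± 156 CPM in Sham and did not pass (adjusted p = 0.127 in edgeR).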

How the data were processed

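RNA-seq of sorted red pulp macrophages was used, with 4 CLP and 4 Sham libraries grouped by their titles. The authors deposited 1 table of raw counts, with a line for each Ensembl gene. Per the labels' protocols, libraries were made with a stranded TruSeq kit and run on an Element AVITI. The submitters' processing notes name FastQC, STAR 2.7.10b, featureCounts and DESeq2 with build mm39, without roles; the sources used here give neither annotation release nor strand setting. Symbols and transcript lengths came from GENCODE M21, an older build (52081 of 55414 IDs matched), and promoters from RefSeq GRCm38.p6.

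The test was edgeR 4.0.16 under R 4.3.3 on the counts (14004 genes kept by filterByExpr; TMM; robust quasi-likelihood F-test, no covariates; Benjamini-Hochberg over all genes, threshold 0.05). Each SE was taken from the fold change and the F statistic (log2 change over root F). A gene at 1 CPM rests on 15.1 to 27.6 reads per library, and precision below that is limited by counting. No 2 libraries of a group matched within counting noise (chi-square of at least 8.99 per degree of freedom), so each was kept as a replicate. Ratios used raw reads with 0.5 added and exact permutation over 70 assignments, adjusted over 7 ratios. The edgeR step was tested on simulated data.

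All 10 genes are named, with, from each list of other complement genes, the 2 largest called changes among genes of mean CPM 5 or above and the gene with the highest CPM, the marker of highest CPM from each marker list, and the 3 nearest patterns. C4a, Calr, Cd46 and Cr1l, untested genes and further markers were picked with their values in view. The genes and lists were chosen with earlier results of these data known. Alternatives were library totals, DESeq2 size factors, 2 other filters, DESeq2 1.42.0, limma-voom (limma 3.58.1), a surrogate variable (sva 3.50.0), a replicate block and each library left out. A complement gene and a monocyte marker were taken out of their lists, for a reason other than their values, and are not reported here. A surrogate variable from raw counts was added after the data were seen. It was at 0.278, -0.0642, 0.244 and 0.496 in CLP replicates 1 to 4. In Sham replicates 1 to 4 it was at -0.404, -0.252, 0.265 and -0.562, so it ran partly with the groups. The SE of each of the 10 genes was larger with it than in the main fit, for C3ar1 0.385 against 0.25.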

Additional observations from a re-analysis of the deposited data

Results flagged for a closer look

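Of 50 groups of 4 libraries examined (the CPM of each named gene, and each ratio), 2 held a library far from the other 3 by Dixon's test, and chance flags about 1 in 20. For C1qa, Sham replicate 1 was at 2759 CPM, while the other Sham libraries were at 2242 to 2296 CPM. For Cd55, CLP replicate 3 was at 425.6 CPM, while the other CLP libraries were at 180.1 to 197.5 CPM.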

How the results depend on the processing

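With library totals, 1286 genes were higher and 6435 lower, 4 of the 10 genes described were called (3 higher), and 5 of the other complement genes (3 higher, 2 lower). C1qa turned to -0.021, C1qc to -0.067, Fcna to -0.027, C6 to -0.034, C1ra to -0.052, Cr1l to -0.17, Itgax to -0.089, Lrp1 to -0.14 and C1qbp to -0.12, while C1qb at 0.074, Cfp at 0.10, C2 at 0.041, Itgb2 at 0.12, Calr at 0.084 and Cd55 at 0.55 lost their calls. With 1 surrogate variable from raw counts, added after the data were seen, 3550 genes (1590 higher, 1960 lower), 4 of the 10 (3 higher) and 4 other complement genes (all 4 higher) were called, and C1qa (0.34), C1qc (0.30), C3ar1 (1.13) and Cfb (0.73) lost their calls, as did C2 (0.25), C4a (1.20), Fcna (0.31), Cd55 (0.76) and Cd93 (0.59). C1qc was at 0.22 with no filter on low counts (adjusted p = 0.0512 in edgeR). C3 passed with DESeq2 size factors (0.71), DESeq2 (0.71), limma-voom (0.61) and the replicate block (0.61, adjusted p = 0.00559 in edgeR). The labels do not say whether replicate numbers pair the libraries. Same-numbered deviations correlated at 0.074, -0.038, 0.261 and -0.192, which cannot settle it. The block changed no other call among the 10, while Cd55 lost its call (0.77, adjusted p = 0.0536 in edgeR). Cr2, at -0.051, turned to 0.053 with the planned surrogate variable, 0.47 with that from raw counts and 0.0074 with limma-voom. The cause was not tested.

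Leaving out each library in turn gave 6 to 8 of the 10 called, 5 to 7 of them higher, and 7 to 12 other complement genes higher, 12 of them without CLP replicate 3. The log2 fold change ran from 0.26 to 0.41 for C1qa, 0.21 to 0.34 for C1qc, 0.39 to 0.83 for C3 and -0.24 to 0.23 for Cr2. The log2 ratio difference ran from -0.37 to 0.045 for Cfp to C3 and -0.11 to 0.17 for Vsig4 to C1q. With 4 against 4 libraries and 7 ratios, no ratio passed after adjustment, and a sign-flip test of 4 pairs cannot pass. Cfb and Vsig4 rest on the fewest reads of the 10, 36 to 126 per library.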
